A study of Mus musculus with 15 samples.

Results

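The livers compared here differed in which form of human alpha1-antitrypsin they were made to express. The comparison rests on 6 of the 15 arrays of the study, 3 from Z-on mice and 3 from M-on mice, chosen by their titles alone. Z-on mice carried the mutant ATZ form and received no doxycycline, so that the transgene was on. M-on mice carried the wild type human form, also without doxycycline. In the other 3 groups of 3 arrays, Z-off and M-off mice carried the same transgenes but drank doxycycline at 40 µg per mL from conception, which shuts them off, and littermates had no transgene and no doxycycline. All mice were labelled as males aged 3 months and as biological replicates. Expression of either human protein was inducible and restricted to hepatocytes, so the groups model a hepatocyte-made protein in an otherwise mouse liver. No probe set for the human transgene was used here, and the level of either protein was therefore not checked.

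Alpha1-antitrypsin is a protease inhibitor that hepatocytes secrete into blood. The Z form misfolds into polymers that build up inside the endoplasmic reticulum (ER), the compartment where secreted proteins fold, while hepatocytes export the M form. Setting both against each other asks what the mutant protein does to the liver beyond making a human secretory protein as such. Among the genes examined, those of cholesterol synthesis are controlled by SREBP2, a transcription factor held in the ER membrane by Scap and Insig proteins while sterols are abundant.

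The gene list with the most called members was cholesterol synthesis, in which 14 of 23 measured genes of that pathway were lower in Z-on than in M-on livers. Transcripts called higher in Z-on against every single M-on array included Rgs16, Nox4, Pik3c2g and Sema3e. Of these, Pik3c2g was also called higher in Z-off than in M-off livers. Nox4 was lower in M-on livers than in littermates, while Z-on livers and littermates were not called apart. Of 23 genes of the ER stress sensors and their pathway limma called 0, where 5.16% of all genes were called. Values are deposited linear signals in arbitrary units, and differences are Z-on minus M-on on a log2(signal + 16) scale. The added constant of 16 shrinks the difference of dim genes. Each of 12393 genes was tested with limma over all 15 arrays, and a gene is said to be called, or to have risen or fallen, when its p adjusted by Benjamini-Hochberg over all genes was under 0.05. Of all genes, 456 (3.68%) were called higher and 184 (1.48%) lower, together 5.16%, with the 3 Z-on arrays beyond the 3 M-on arrays in 589 of the 640.

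The M-on arrays differed among themselves and from their label. On the first principal component of the 6 arrays, which held 47.8% of the variance, the Z-on arrays lay at 17.6, 22.1 and 26.1, against 7.52, -36.3 and -37.0 for M-on 1, 2 and 3. M-on 1 was thus placed closer to the Z-on arrays than to its own group. Against M-on 1 alone the 3 Z-on arrays gave 26 genes higher (0.210%) and 43 lower (0.347%). Against M-on 2 alone they gave 875 higher (7.06%) and 279 lower (2.25%), and against M-on 3 alone 959 higher (7.74%) and 310 lower (2.50%). A fit of the 6 arrays alone, which takes the spread from these groups only, called 6 genes higher and 12 lower. With any single one of the 6 arrays left out, 30 of the 456 higher and 29 of the 184 lower genes kept their calls each time. The median over genes of the SD was 0.18 in Z-on and 0.23 in M-on. Female-type transcripts marked M-on 1 and M-on 2 although all mice were labelled male, as given below with each such gene. Poly-A controls, RNAs added before labelling, had medians of 2 to 2.3 on Z-on and 3.7 to 5.2 on M-on arrays, and their part in the results was not tested. Ranges overlapped between Z-on and M-on arrays for the array median (47.8 to 52.5 and 43.9 to 54.9) and for the actin ratio of 3′ to 5′ signal (1.47 to 1.73 and 1.29 to 1.61). Littermate arrays lay outside both groups, with poly-A medians of 33.8 to 37.6 and actin ratios of 2.34 to 2.46. The 18S ribosomal RNA signal was 75 to 286 on littermate arrays, against 1880 to 2666 on Z-on and 1830 to 2681 on M-on arrays. The part of these controls in the comparisons with littermates was not tested. None of 9 defining hepatocyte markers was called by limma, with 1 at an unadjusted p under 0.05 and a median difference of -0.04, against -0.03 for all genes.

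**Figure D1:**
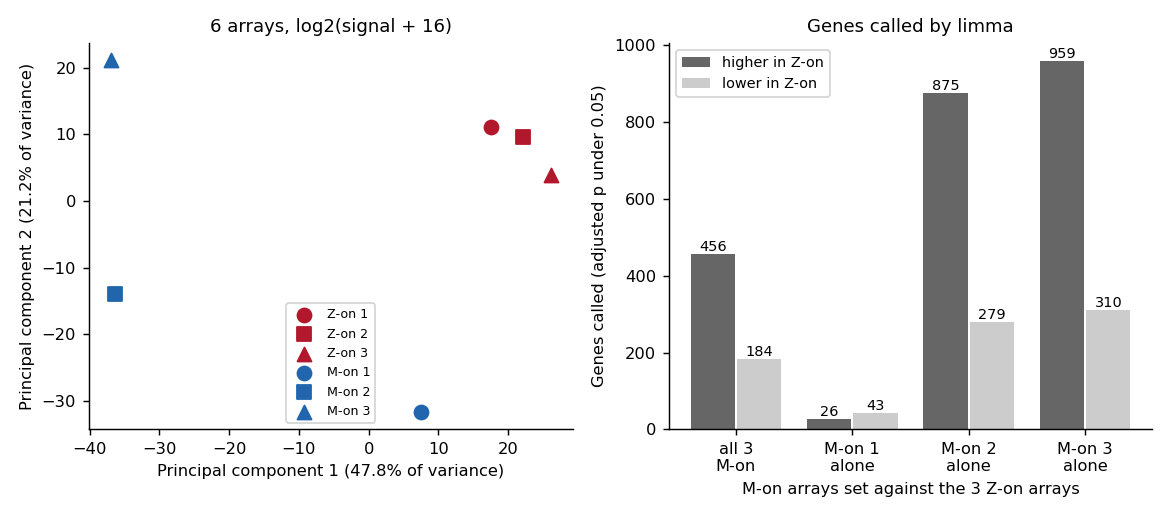
Left, the 6 arrays on principal components 1 and 2 of log2(signal + 16), with Z-on in red, M-on in blue and the marker shape giving the replicate. Right, the number of genes called higher (dark) and lower (light) in the 3 Z-on arrays against all 3 M-on arrays and against each M-on array alone. The count of genes called higher is 26 against M-on 1 and 875 and 959 against M-on 2 and M-on 3.

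Cholesterol is built from acetyl-CoA through mevalonate, squalene and lanosterol, and SREBP2 acts on the promoters of these enzymes together with NF-Y, which binds CCAAT boxes, and Sp1, which binds GC-rich boxes. All 14 called genes of the list were among its 17 measured enzymes, whose median difference was -1.82. Over the 23 genes the median was -1.36, and in 16 (69.6%) the groups did not overlap, each with Z-on below M-on, whereas 19.2% of all genes had no overlap in either direction. The sequences of 3 promoters whose enzymes fell are shown because these genes moved together. They are the 250 bases before the gene start in the RefSeq promoter table (GRCm38.p6), read along the gene's strand, with CCAAT and GGGCGG matches on either strand in capitals and, for Msmo1, the sterol element TCACNNCAC in capitals as well, where it overlaps a CCAAT match.
Mvk promoter, chr5:114444019-114444268, plus strand: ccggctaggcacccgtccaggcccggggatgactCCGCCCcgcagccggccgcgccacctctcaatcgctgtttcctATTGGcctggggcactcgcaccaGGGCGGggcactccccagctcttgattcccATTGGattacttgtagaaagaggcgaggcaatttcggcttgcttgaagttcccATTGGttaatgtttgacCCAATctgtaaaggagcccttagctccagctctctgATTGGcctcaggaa
Cyp51 promoter, chr5:4104698-4104947, minus strand: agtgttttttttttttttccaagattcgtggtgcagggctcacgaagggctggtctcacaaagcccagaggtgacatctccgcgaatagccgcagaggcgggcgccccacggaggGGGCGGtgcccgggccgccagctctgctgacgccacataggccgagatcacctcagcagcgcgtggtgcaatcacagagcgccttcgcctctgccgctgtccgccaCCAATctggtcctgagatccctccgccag
Msmo1 promoter, chr8:64733579-64733828, minus strand: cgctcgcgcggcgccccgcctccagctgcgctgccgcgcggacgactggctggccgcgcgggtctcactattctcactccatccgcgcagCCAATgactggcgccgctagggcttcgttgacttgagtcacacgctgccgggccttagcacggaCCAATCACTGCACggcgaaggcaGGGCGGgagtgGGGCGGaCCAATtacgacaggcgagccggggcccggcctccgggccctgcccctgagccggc
The Mvk stretch held 5 CCAAT and 2 GGGCGG matches, that of Cyp51 1 of each, and that of Msmo1 3 and 2. Of the 19 list members with a promoter in the table, 18 (94.7%) held CCAAT and 18 held GGGCGG on either strand in their windows around the start. In all 27025 promoters of the table these shares were 41.1% and 38.2%. TCACNNCAC was found in 4 of the 19, against 4.37% of all. The 3 motifs were chosen after the values were seen, and a match is not evidence of binding.

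In the steps that lead to squalene, Mvk, the mevalonate kinase, had signals of 12.8, 29.5 and 2 in Z-on livers, against 208, 227 and 295 in M-on livers. The log2 difference was -3.16 (SE 0.26, adjusted p = 4.97e-05 by limma). Its Z-on signals lie near the added constant, so the size depends on that constant. Pmvk, the next kinase, read 61.4, 52 and 63.3 in Z-on and 166, 188 and 195 in M-on livers, a difference of -1.41 (SE 0.18, adjusted p = 0.00185). Mvd, the decarboxylase that follows, read 24.1, 63.3 and 47.1 in Z-on and 229, 226 and 237 in M-on livers (-2.07, SE 0.31, adjusted p = 0.00464). None of these 3 enzymes had overlapping groups, and the 3 M-on arrays agreed more closely than the Z-on arrays for Mvd. Fdps, which makes farnesyl diphosphate, read 231, 382 and 206 in Z-on and 1710.0, 1739 and 2869 in M-on livers (-2.88, SE 0.31, adjusted p = 3.73e-04). Fdft1, the squalene synthase, read 242, 230.2 and 203 in Z-on and 867, 1054 and 1143 in M-on livers (-2.10, SE 0.19, adjusted p = 7.61e-05). A further Fdft1 probe set gave -2.25 (adjusted p = 1.80e-04), and 2 others, with signals of at most 33.7 on these arrays, gave -0.04 and 0.19 and were not called.

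Hmgcs1, which makes the precursor HMG-CoA, and Idi1, the isopentenyl diphosphate isomerase, were not called. Hmgcs1 read 865, 1457 and 391 in Z-on and 3764, 1354 and 1514 in M-on livers (-1.30, adjusted p = 0.138). Idi1 read 191, 357 and 132 in Z-on and 1093, 394 and 408.5 in M-on livers (-1.36, adjusted p = 0.0698). In both genes M-on 1 was far above M-on 2 and 3. For Hmgcs1 the highest Z-on array lay above M-on 2, whereas the groups did not overlap for Idi1.

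From squalene on, Sqle, the squalene epoxidase and a rate-limiting enzyme, showed the largest fall of any called gene whose arrays did not overlap. Its signal was 61.1, 112 and 72.4 in Z-on livers, against 842.5, 1022 and 879.8 in M-on livers (-3.28, SE 0.30, adjusted p = 7.61e-05). The M-on arrays lay close together and far above the Z-on arrays. Lss, which closes the ring to lanosterol, read 141, 171 and 144 in Z-on and 329, 389 and 364 in M-on livers (-1.17, SE 0.16, adjusted p = 0.00347). Cyp51, the lanosterol demethylase, read 68.2, 120.4 and 83.9 in Z-on and 601, 532 and 574 in M-on livers (-2.48, SE 0.21, adjusted p = 5.64e-05). Another Cyp51 probe set gave -1.93 (adjusted p = 0.00373), and the dimmest gave -0.56 and was not called. Msmo1, the methylsterol monooxygenase, read 529, 1066 and 318 in Z-on and 3102, 2225 and 2273 in M-on livers (-2.11, SE 0.35, adjusted p = 0.00857). Nsdhl, a sterol dehydrogenase, read 361, 419 and 251 in Z-on and 1026, 1068 and 1702 in M-on livers (-1.82, SE 0.29, adjusted p = 0.00750). Dhcr7, which completes cholesterol, read 178, 187 and 81 in Z-on and 567, 577 and 808 in M-on livers (-2.07, SE 0.29, adjusted p = 0.00347). None of these enzymes had overlapping groups.

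Smaller or less even falls were seen in Tm7sf2, Ebp and Sc5d. Sc5d, a sterol desaturase, read 478, 529 and 323 in Z-on and 2138, 716 and 1205 in M-on livers (-1.47, adjusted p = 0.0273), with a wide spread over the M-on arrays. Tm7sf2, a sterol reductase, differed by -0.77 (adjusted p = 0.0206) and Ebp, a sterol isomerase, by -0.68 (adjusted p = 0.0181). These 3 calls did not hold when certain single arrays were left out. Without M-on 3, adjusted p was 0.0737 for Sc5d, 0.0531 for Tm7sf2 and 0.0601 for Ebp. Without Z-on 3 it was 0.0992, 0.0704 and 0.0512 in the same order. Leaving out Z-on 2 also ended all 3 calls, leaving out Z-on 1 that of Sc5d, and leaving out M-on 2 that of Ebp. The calls of the other 11 enzymes held with any single array left out. Hsd17b7, an enzyme of the same demethylation steps as Nsdhl, was not called (-0.59, adjusted p = 0.125). Erg28, a scaffold of that demethylation complex that the list did not hold, fell by 1.19 (adjusted p = 0.00347).

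The regulators did not pass the test. Srebf2, which encodes SREBP2, read 143, 113.5 and 162 in Z-on and 129.8, 173 and 129 in M-on livers (-0.04, adjusted p = 0.961). Scap, the escort of SREBP proteins, read 441, 493 and 355 in Z-on and 565, 778 and 733 in M-on livers (-0.67, adjusted p = 0.0594), with no overlap of the groups. Differences were 0.24 for Srebf1, which encodes the related factor SREBP1, 0.08 for Insig2, -0.10 for the sterol carrier Stard4 and -0.36 for Mylip, a ligase that targets the LDL receptor. None of the 6 regulators was called.

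**Figure D2:**
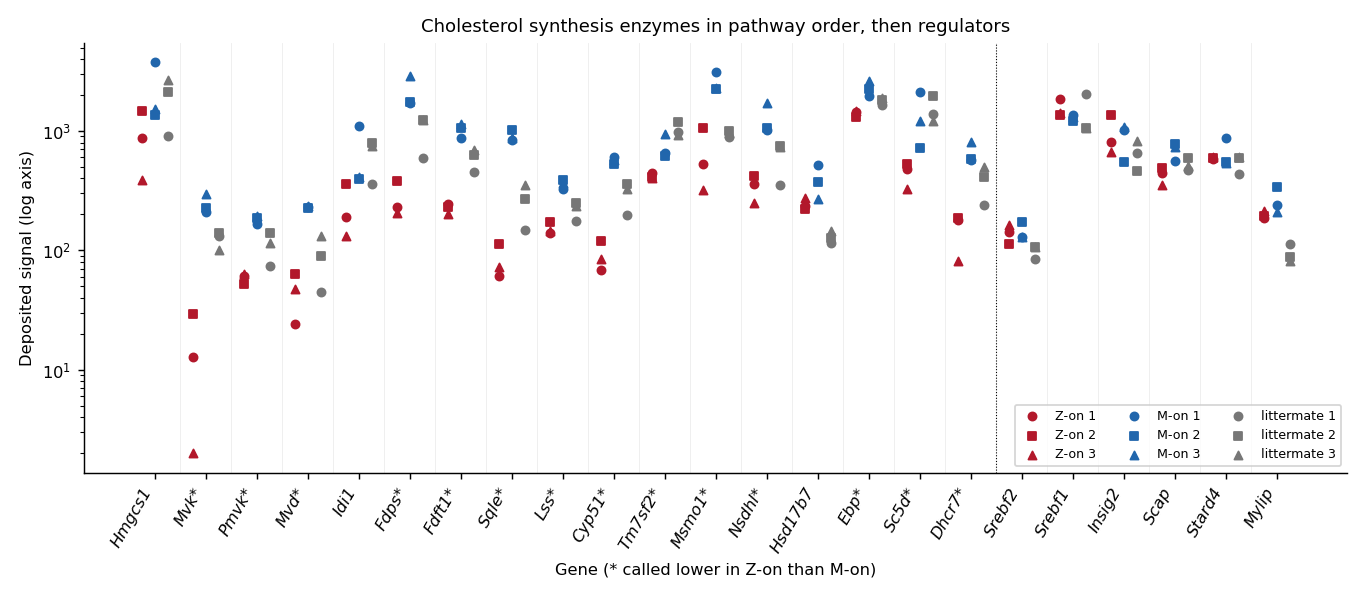
Deposited signals (log axis) of the 23 measured genes of cholesterol synthesis and uptake on the Z-on (red), M-on (blue) and littermate (grey) arrays, with enzymes in pathway order left of the dotted line and regulators right of it. Asterisks mark the 14 genes called lower in Z-on than in M-on, such as Sqle at 61.1 to 112 in Z-on and 842.5 to 1022 in M-on.

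The fall of the enzymes was seen against each M-on array, though fewer calls were made with M-on 1 or M-on 2 alone. Members called lower numbered 6 against M-on 1 alone, 12 against M-on 2 alone and 14 against M-on 3 alone, with list medians of -1.56, -0.87 and -1.18. For all genes those medians were -0.04, -0.04 and -0.01. Sqle, Mvk, Fdps, Cyp51 and Fdft1 were called lower against every single M-on array, and of the 12 falls in the fit of the 6 arrays alone 7 were list members. The littermates lay between the groups for most enzymes: the Z-on mean was below the littermate mean in 16 of 17 and the M-on mean above it in 14. Of the 17, 10 were called lower in Z-on than in littermates and 11 higher in M-on than in littermates, in comparisons that share the littermate arrays. Those arrays differed from the on arrays in control probe sets, as given above, and the part of this was not tested. Sqle averaged 81.9 ± 26.8 in Z-on and 915 ± 94.7 in M-on, and 255 ± 101 in littermates (SD, n = 3 each). Hsd17b7 was the exception among the Z-on means, at 244 ± 27.3 in Z-on and 129 ± 15.6 in littermates.

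With the transgenes off, limma called 0 of the 17 enzymes between the lines, with 2 at an unadjusted p under 0.05, and their median difference was -0.13. Sqle averaged 233 ± 77 in Z-off and 332 ± 78.4 in M-off livers (log2 difference -0.51, adjusted p = 0.649). The difference with the transgenes on was set against that with them off as an interaction in the same fit, in which 76 genes (0.613%) passed. Among those 76 were 7 of the enzymes, with Mvk (-3.02, SE 0.37, adjusted p = 0.00629), Cyp51 (-2.47, SE 0.30, adjusted p = 0.00629) and Sqle (-2.77, SE 0.42, adjusted p = 0.0229).

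Few genes differed against each of the 3 M-on arrays: 8 were called higher each time (0.0646% of genes) and 11 lower each time (0.0888%), of which 5 were the cholesterol enzymes just named. Rgs16 accelerates the shut-off of G protein signals and is the gene that the study's publication named. Its signal was 319.9, 247 and 266 in Z-on livers, against 18.7, 62.8 and 9.7 in M-on livers (2.82, SE 0.43, adjusted p = 0.00561). All Z-on arrays were above all M-on arrays, of which M-on 2 was the highest. Against M-on 1, 2 and 3 alone the difference was 3.07, 1.89 and 3.51. Its other 2 probe sets gave 3.23 (adjusted p = 0.00207) and 1.62 (adjusted p = 0.0130). The call was not kept with a constant of 1, or with only the 6 arrays fitted.

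Nox4 encodes an NADPH oxidase that makes hydrogen peroxide. It read 207, 245.5 and 363 in Z-on and 38, 40.1 and 45.3 in M-on livers (2.30, SE 0.28, adjusted p = 0.00145). The M-on arrays agreed closely and stood apart from the other groups, with means of 272 ± 81.3 in Z-on and 41.1 ± 3.76 in M-on, 166 ± 88 in Z-off and 214 ± 43.6 in M-off, and 288 ± 53.2 in littermates (SD, n = 3 each). Set against littermates, Z-on livers showed no called difference in Nox4 (-0.10, adjusted p = 0.859), while in M-on livers it was lower (-2.40, adjusted p = 2.06e-04). Sema3e, a secreted semaphorin that signals through plexin D1, showed the other order. It read 82.5, 66.2 and 87.9 in Z-on and 0.4, 0.3 and 9.9 in M-on livers (2.31, SE 0.34, adjusted p = 0.00424), and 9.97 ± 7.86 (SD, n = 3) in littermates. Z-on exceeded littermates by 1.91 (adjusted p = 0.00302), while M-on and littermates were not called apart (-0.40, adjusted p = 0.424). The 2 dimmer Sema3e probe sets gave 0.52 and 0.71, of which the larger was called (adjusted p = 0.0427), and a constant of 1 ended the main call.

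Pik3c2g and Apcs differed between the lines whether the transgenes were on or off. Pik3c2g, a class II phosphoinositide kinase found in liver, read 137, 105 and 166 in Z-on and 21.2, 19.5 and 12.3 in M-on livers (2.17, SE 0.16, adjusted p = 3.38e-05). In the off groups it averaged 112 ± 10.7 in Z-off and 16.8 ± 2.3 in M-off livers (1.96, adjusted p = 1.19e-04). Apcs, the serum amyloid P component, read 690.5, 258 and 519 in Z-on and 3119, 2063 and 2501 in M-on livers (-2.44, SE 0.32, adjusted p = 0.00238). It averaged 682 ± 95.1 in Z-off and 2781 ± 106 in M-off livers (-2.01, adjusted p = 0.0336). The M-off and littermate means of Apcs lay close to M-on, at 2781 ± 106 and 2630.3 ± 1152. Hgfac, an activator of hepatocyte growth factor, and Asic5, an ion channel, were the other 2 genes called in both comparisons, lower in Z each time. Hgfac differed by -0.61 with the transgenes on and -0.88 off, and Asic5 by -1.04 and -1.89. These 2 were chosen after their values were seen. In all, 16 genes (0.129%) were called between Z-off and M-off, so that the 4 shared genes were 0.625% of the genes called with the transgenes on and 25% of those called with them off. The interaction was not called for Pik3c2g (0.20, adjusted p = 0.745) or Apcs (-0.43, adjusted p = 0.724).

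Slco1a1, an organic anion transporter with higher expression in male liver, showed the largest rise of any called gene whose arrays did not overlap. It read 1601, 1419 and 2072 in Z-on and 399, 40.8 and 509 in M-on livers (2.87, SE 0.57, adjusted p = 0.0181). Even M-on 3, the highest of its group, was below every Z-on array, and M-on 2 was lowest. Without Z-on 3 the call was lost (adjusted p = 0.0689), and the dimmer Slco1a1 probe set was not called (2.05, adjusted p = 0.0592). Luc7l3, a splicing factor, read 162, 180.4 and 195 in Z-on and 76.8, 37.2 and 41.4 in M-on livers (1.57, SE 0.19, adjusted p = 0.00129). Its littermate mean was 216 ± 24.8 (SD, n = 3), above every M-on array. A dimmer Luc7l3 probe set gave 0.77 and was not called (adjusted p = 0.201). Sycp3, a meiotic chromosome protein, rose by 1.08 at low signals of 20.7, 34.4 and 25 in Z-on and 1.2, 7.3 and 4.1 in M-on livers (adjusted p = 0.00866). The remaining gene of the 8 was the Y-linked Eif2s3y, described below with the sex chromosomes.

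Among the falls against every M-on array, Rdh11, a retinol dehydrogenase, read 80.5, 82.6 and 42 in Z-on and 360.3, 292 and 347 in M-on livers (-2.08, SE 0.28, adjusted p = 0.00277). It was not called between the lines with the transgenes off, and the interaction passed (-2.48, adjusted p = 0.0252). Trappc12, a subunit of a vesicle tethering complex, read 16.7, 16.8 and 19.4 in Z-on and 70.3, 87 and 60.8 in M-on livers (-1.39, adjusted p = 0.00129). Pde3a, a phosphodiesterase that breaks down cyclic AMP, read 5.6, 7.9 and 6.4 in Z-on and 37.5, 32 and 31.4 in M-on livers (-1.13, adjusted p = 1.67e-04). For Pde3a the M-on arrays were above the littermates, at 7.67 ± 1.26 (SD, n = 3), and the Z-on arrays were not called apart from them (-0.06, adjusted p = 0.769).

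**Figure D3:**
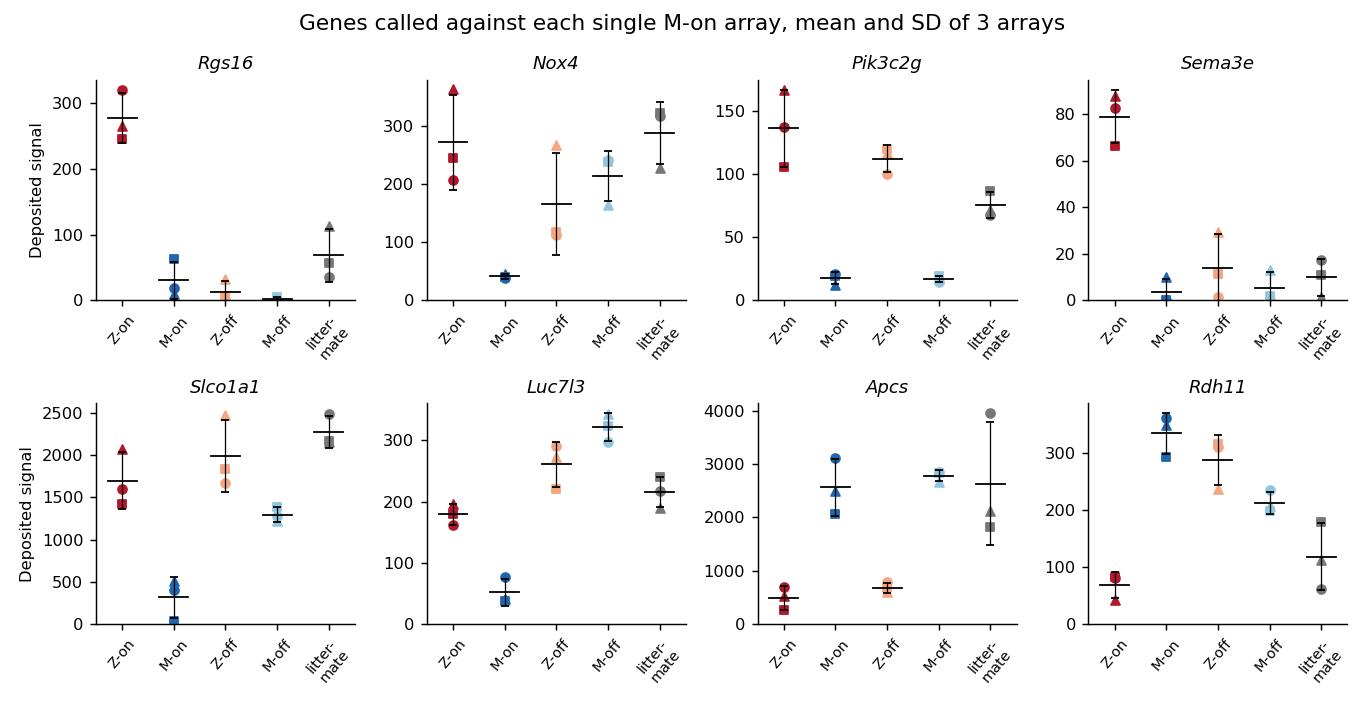
Deposited signals of 8 genes called in the same direction against each single M-on array, in all 5 groups, with the on groups at the left and the littermates at the right, and with circles, squares and triangles for replicates 1, 2 and 3 and bars for the mean ± SD of 3 arrays. Rgs16 and Sema3e are highest in Z-on, Nox4 and Luc7l3 lowest in M-on, and Pik3c2g and Apcs differ between Z and M also with the transgenes off.

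Several markers of liver macrophages were lower in Z-on than in M-on livers. Of 14 Kupffer cell and macrophage markers, 4 were called lower (28.6%, against 1.48% of all genes), the median of the list was -0.61, and in 9 (64.3%) the groups did not overlap, each with Z-on lower, against 19.2% of all genes in either direction. The summed signal of the 14 was 2929 to 3269 on Z-on arrays and 4284 to 5084 on M-on arrays. In bulk liver, fewer cells of a type and less RNA per cell cannot be told apart. C1qa and C1qc encode chains of complement C1q, made by macrophages. C1qa read 114.5, 114.5 and 135 in Z-on and 285, 395 and 356 in M-on livers (-1.39, SE 0.24, adjusted p = 0.00976). C1qc read 57.1, 101 and 139 in Z-on and 258, 301 and 224 in M-on livers (-1.33, SE 0.26, adjusted p = 0.0169). Csf1r, the receptor for the macrophage growth factor, read 277, 348 and 419 in Z-on and 779, 866 and 703 in M-on livers (-1.15, SE 0.20, adjusted p = 0.0108). Cd5l, a protein that macrophages secrete, differed by -0.97 (adjusted p = 0.0255). Groups did not overlap for any of the 4. The Kupffer cell lectin Clec4f read 225, 224 and 274 in Z-on and 460.0, 379 and 355 in M-on livers and was not called (-0.69, adjusted p = 0.0695). All 4 calls were lost without M-on 2 (adjusted p from 0.0528 for C1qa to 0.118 for Cd5l). Against M-on 1 alone the list median was -0.58, where that of all genes was -0.04.

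Several genes of MHC class II, which presents antigen on macrophages, dendritic cells and B cells, were also called lower in Z-on. These genes were chosen after their values were seen. H2-Aa read 111, 137.5 and 152 in Z-on and 400.3, 608.5 and 527 in M-on livers (-1.81, SE 0.40, adjusted p = 0.0252). H2-Ab1 read 65.9, 76.5 and 123 in Z-on and 249, 307 and 283 in M-on livers (-1.53, SE 0.29, adjusted p = 0.0148). Groups did not overlap for either chain. Cd74, the invariant chain, differed by -1.20 (adjusted p = 0.0444), H2-DMa by -0.90 (adjusted p = 0.0270), and H2-Eb1 by -1.58 without a call (adjusted p = 0.108). Ciita, the master activator of these genes, differed by 0.05 (adjusted p = 0.965). A dimmer H2-Aa probe set gave -0.66 and was not called (adjusted p = 0.563), with M-on 3 inside the Z-on range, and those of H2-Ab1 gave -1.79 (adjusted p = 0.0298) and -1.13 (adjusted p = 0.0603). The call of H2-Aa was lost without M-on 2 (adjusted p = 0.118), M-on 3 (0.0737) or any one of the Z-on arrays (0.0704 to 0.0757). The call of H2-Ab1 was lost without M-on 2 (adjusted p = 0.0701), Z-on 1 (0.0509) or Z-on 2 (0.0537). Of 13 lymphocyte, 10 neutrophil and mast cell, 12 sinusoidal endothelial and 10 stellate cell markers, limma called 0, with 2, 3, 1 and 1 at an unadjusted p under 0.05. The same held for 6 cholangiocyte, 9 exocrine pancreas, 5 adipocyte, 4 erythroid and 8 muscle markers, with 1, in the pancreas list, at an unadjusted p under 0.05.

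Sex-biased liver genes varied widely among the M-on arrays. Many such genes follow the pulse pattern of growth hormone, which differs between male and female animals. Of 25 measured female-biased genes, 21 on M-on 1 and 22 on M-on 2 exceeded all 12 arrays of the other groups, against 2 on M-on 3. Sult2a2, a female-type sulfotransferase, read 16.9, 16.3 and 15.6 in Z-on livers, against 3836, 3080.4 and 11.1 on M-on 1, 2 and 3. Cyp2b9, a female-type cytochrome, read 173, 171 and 127 in Z-on livers, against 1984, 2470.3 and 29.1 on the M-on arrays in the same order. Cyp2d9, a male-type cytochrome, read 3774, 3630.0 and 4317 in Z-on livers, against 436, 181 and 4512 on the M-on arrays. For all 3 genes M-on 3 was on the Z-on side and M-on 1 and 2 were not, and none was called (adjusted p = 0.0612, 0.369 and 0.0809). These 3 genes were chosen after their values were seen.

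Of the 25 female-biased genes, 6 were called lower in Z-on and 1 higher (28%, against 5.16% of all genes), with a list median of -1.35. Cyp2c38 read 118, 209 and 259 in Z-on and 1474, 1423 and 717 in M-on livers (-2.52, SE 0.42, adjusted p = 0.00897), and here M-on 3 also lay above every Z-on array. Fmo4, a flavin monooxygenase, differed by -1.14 (adjusted p = 0.0225), and the cytochromes Cyp3a16 by -1.36 and Cyp3a44 by -1.31 (adjusted p = 0.0349 and 0.0362). Cyp2c39 had the largest fall of the Cyp2c genes, at 32.5, 259 and 252 in Z-on and 2506, 1286 and 419 in M-on livers (-2.88, SE 0.77, adjusted p = 0.0459). Against M-on 3 alone the list median was 0.21, and against M-on 1 and M-on 2 alone it was -1.94 and -1.95. Of 24 male-biased genes 2 rose (8.33%, against 3.68% of all genes), namely Slco1a1 and Ugt2b1, a glucuronosyltransferase (0.83 for Ugt2b1, adjusted p = 0.0460). The male-biased median was 0.53, and -0.22 against M-on 3 alone.

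Sex chromosome transcripts set all 3 M-on arrays apart from the Z-on arrays, but not in the same way. Xist, the RNA that silences an X chromosome in females, read 56.5, 51.1 and 74.3 in Z-on livers, against 1149, 226 and 32.6 on M-on 1, 2 and 3 (-1.65, adjusted p = 0.227). Only M-on 1 and M-on 2 lay above the Z-on arrays. The Y-linked Eif2s3y, a translation initiation factor gene, read 134, 105 and 148 in Z-on livers, against 0.4, 1.3 and 42.1 on the M-on arrays (2.50, SE 0.38, adjusted p = 0.00487). Uty read 37.9, 51.8 and 31.7 in Z-on and 4.6, 5.6 and 8.5 in M-on livers (1.33, adjusted p = 0.00561), and Kdm5d differed by 1.08 (adjusted p = 0.0148). Both are Y-linked genes of histone demethylase families. Their dimmer probe sets were not called, at 0.48 for Uty (adjusted p = 0.103) and 0.46 and 0.19 for Kdm5d (adjusted p = 0.227 and 0.555). M-on 3 was thus male-type in liver genes and in Xist, with Y-linked signals above M-on 1 and 2 and below every Z-on array. Which part of the results goes with sex-type signals was not tested beyond the values against each M-on array.

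**Figure D4:**
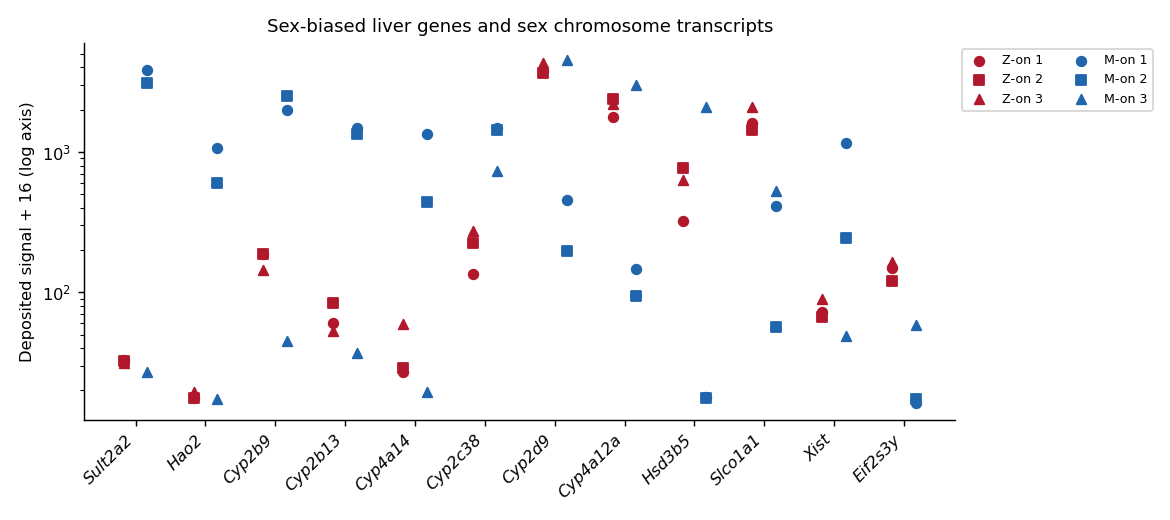
Deposited signal + 16 (log axis) of 6 female-biased genes, 4 male-biased genes, Xist and Eif2s3y on the 3 Z-on (red) and 3 M-on (blue) arrays, with the marker shape giving the replicate. M-on 3 (triangles) lies near or beyond the Z-on arrays for Sult2a2, Cyp2b9, Cyp2d9 and Xist, but below them for Slco1a1 and Eif2s3y.

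Most genes called higher in Z-on were genes that were low on M-on 2 and M-on 3. In 368 of the 456 (80.7%), M-on 2 and M-on 3 were the lowest of the 15 arrays, as they were for 8.50% of all genes. The 456 were called on these same arrays, so that low M-on signals are in part built into this share. In 328 (71.9%) M-on 1 was nearer to the Z-on mean than to the mean of M-on 2 and 3, against 58.6% of all genes. Of the 456, 9 were also called against M-on 1 alone, 399 against M-on 2 alone and 394 against M-on 3 alone. The genes called higher spanned a median of 40.1 kb of genome, against 20.1 kb for all genes and 16.2 kb for those called lower. Ube3a, a ubiquitin ligase, read 327, 328 and 388 in Z-on livers, against 246, 17.7 and 19.9 on M-on 1, 2 and 3 (2.41, SE 0.54, adjusted p = 0.0252). Against M-on 1 alone its difference was 0.47 (adjusted p = 0.465). Of the 12 largest rises 6, Lrrc58, Tlcd4, Ube3a, Bpnt2, Fam126b and Atp13a3, shared this order of arrays and were not called against M-on 1 alone. Without M-on 2 the fit called 36 genes higher and 39 lower, and without M-on 1 it called 1127 higher and 537 lower.

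The same order of arrays was seen in splicing and nuclear RNA-binding factors, of which 8 of 48 were called higher (16.7%, against 3.68% of all genes) with a median of 0.46. Besides Luc7l3, the kinase Prpf4b rose by 1.65 (adjusted p = 0.0235), Hnrnph1 by 1.21 (adjusted p = 0.0235) and the helicase Ddx5 by 0.91 (adjusted p = 0.0235). Prpf4b read 53.9, 103 and 143 in Z-on livers, against 55, 10.1 and 7.2 on M-on 1, 2 and 3, with M-on 1 inside the Z-on range. In the list, 1 member was called against M-on 1 alone, 21 against M-on 2 and 19 against M-on 3, with medians of 0.07, 0.60 and 0.63.

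Proteins that fold in the ER are served by chaperones, and a load of misfolded protein can activate the sensors Ire1, Perk and Atf6. Their target promoters can hold the ER stress element, and its matches are shown because the chaperones that carry it are the textbook targets of this response. The element searched was CCAAT and CCACG with 9 bases between them, and the 19 bases of each match, from the RefSeq promoter table of GRCm38.p6, are given along the strand of the match, with the fixed letters in capitals.
Hspa5, chr2:34772025-34772043, plus strand: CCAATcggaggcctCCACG
Hsp90b1, upstream match, chr10:86705638-86705656, minus strand: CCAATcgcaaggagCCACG
Hsp90b1, downstream match, chr10:86705533-86705551, plus strand: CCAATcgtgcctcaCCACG
Calr, chr8:84847075-84847093, plus strand: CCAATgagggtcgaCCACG
Canx, chr11:50325800-50325818, minus strand: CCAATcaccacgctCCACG
Dnajc3, chr14:118937827-118937845, plus strand: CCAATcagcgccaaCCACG
The element was found on either strand in 6 of 19 ER chaperone promoters (31.6%), against 0.137% of 27025 promoters. Those 6 genes were the 5 listed and Creld2, and of them only Dnajc3 was called.

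Hspa5 (BiP), the main ER chaperone, read 2371, 2609 and 4219.8 in Z-on and 2595, 2134 and 2886 in M-on livers (0.23, SE 0.29, adjusted p = 0.740). The groups overlapped, with Z-on 3 the highest of the 6 arrays. Differences were 0.59 for Hsp90b1, -0.14 for Calr and 0.10 for Canx (adjusted p = 0.118, 0.769 and 0.797). Dnajb9, a cochaperone of BiP, read 1235, 1294 and 1991 in Z-on and 978, 658 and 857 in M-on livers (0.83, SE 0.29, adjusted p = 0.117), without overlap of the groups and without a call. Dnajc3, another cochaperone, read 469.6, 591 and 827 in Z-on livers, against 537, 129 and 84.8 on M-on 1, 2 and 3 (1.65, SE 0.44, adjusted p = 0.0444). M-on 1 lay among the Z-on arrays, and the difference from M-on 1 alone was 0.19. Serp1, which protects membrane proteins during stress, rose by 0.96 (adjusted p = 0.0117) and Dnajc1 by 0.86 (adjusted p = 0.0147). From littermates Dnajc3, Serp1 and Dnajc1 differed by -0.25, -0.30 and 0.44 in Z-on, without a call. In M-on they differed from littermates by -1.90, -1.26 and -0.42, with Dnajc3 and Serp1 called lower. These 3 of 23 chaperones, against 3.68% of all genes, were the calls of the list, whose median was -0.03, and limma called 0 against M-on 1 alone, with 3 at an unadjusted p under 0.05.

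Genes of the stress sensors themselves were not called. In the list of 23 UPR and integrated stress response genes limma called 0, with 1 at an unadjusted p under 0.05 and a median of 0.07. Xbp1, the factor activated by Ire1, read 2358, 2330.3 and 2469.8 in Z-on and 2464, 2825.5 and 3416 in M-on livers (-0.27, SE 0.16, adjusted p = 0.404). Ddit3, which encodes the stress factor CHOP, read 53.2, 59.5 and 78.2 in Z-on and 47.3, 68.9 and 59.3 in M-on livers (0.09, SE 0.17, adjusted p = 0.853). Groups overlapped for both genes. Atf4, the factor induced downstream of Perk, differed by -0.28 (adjusted p = 0.276) and Cebpb by 0.88 (adjusted p = 0.102). A p that misses the threshold does not show that the groups were alike.

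Of 28 genes of ER-associated degradation, 4 rose (14.3%, against 3.68% of all genes); this is a route that returns misfolded proteins to the cytosol. Herpud2 read 301, 329 and 294 in Z-on and 188, 201 and 169 in M-on livers (0.68, SE 0.12, adjusted p = 0.0111), with even M-on arrays. By contrast, M-on 1 lay near the Z-on arrays for Edem3, which acts on mannose-rich glycans, at 295, 314 and 467 in Z-on livers and 272, 50.9 and 51.7 on M-on 1, 2 and 3 (1.75, adjusted p = 0.0283). The mannosidase Man1a rose by 1.35 and the glycanase Ngly1 by 0.64. Against M-on 1 alone the median of the 28 was 0.11, and Herpud2, Edem3, Man1a and Ngly1 differed by 0.66, 0.35, 0.31 and 0.19. Herpud2 differed from littermates by 0.64 in Z-on (adjusted p = 0.00411 by limma) and -0.04 in M-on. Edem3 differed from littermates by -0.29 in Z-on and -2.04 in M-on, Man1a by 0.32 and -1.03 and Ngly1 by 0.05 and -0.60. Of 48 genes of ER translocation and vesicle transport, 4 rose (8.33%, against 3.68% of all genes), namely Ergic2 (1.82), Sec63 (0.64), Srp9 (1.22) and Tmed7 (1.41). Against M-on 1 alone the median of the 48 was 0.10, and these 4 differed by 0.89, 0.59, 0.25 and 0.38 in that order. From littermates they differed by -0.05, -0.54, -0.22 and -0.15 in Z-on and by -1.87, -1.18, -1.44 and -1.56 in M-on. Sec63 was thus called lower in Z-on than in littermates (adjusted p = 0.0191 by limma), and all 4 were called lower in M-on. Without M-on 2 all 4 rises lost their calls (adjusted p from 0.0678 for Ergic2 to 0.170 for Tmed7). Among 18 disulphide isomerases and oxidases 2 fell (11.1%, against 1.48% of all genes), namely Qsox1, a sulfhydryl oxidase, by 0.87 and Prdx4, an ER peroxiredoxin, by 0.91. Qsox1 read 629, 552 and 593 in Z-on and 1014, 1119 and 1151.5 in M-on livers and Prdx4 668.5, 678 and 814 in Z-on and 1194, 1379.8 and 1527.5 in M-on livers, without overlap. Both kept their calls with any single array left out (adjusted p at most 0.0239 and 0.0380).

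In the cytosol, 4 of 28 heat shock genes rose (14.3%, against 3.68% of all genes), with a list median of 0.09. Against M-on 1 alone the list median was 0.18, and Hspa1a, Dnajb4, Chordc1 and Dnaja1 differed by 2.72, 0.67, 0.48 and 0.33. Hspa1a, the inducible Hsp70, read 91.9, 60.5 and 265 in Z-on and 4.1, 21.6 and 10.8 in M-on livers (2.28, SE 0.54, adjusted p = 0.0293). Z-on 3 stood far above the other arrays, and the call was lost without it (adjusted p = 0.112), and also without Z-on 1, M-on 2 or M-on 3. Dnajb4 rose by 1.12, the Hsp90 partner Chordc1 by 1.13 and Dnaja1, a cochaperone of Hsp70, by 0.62 (adjusted p = 0.0288, 0.0379 and 0.0435). For these 3 genes the interaction also passed, at 2.04, 2.13 and 1.26, and M-off lay above Z-off: Dnajb4 averaged 254 ± 14.5 in Z-off and 496 ± 37.2 in M-off livers (SD, n = 3 each). From littermates Hspa1a, Dnajb4, Chordc1 and Dnaja1 differed by 0.97, 0.34, 0.49 and -0.13 in Z-on, without a call. In M-on they differed from littermates by -1.31, -0.77, -0.64 and -0.76, with Dnajb4 and Dnaja1 called lower. The heat shock element, searched as GAA, TTC and GAA with 2 bases between neighbours on either strand, was in 5 of 25 promoters of the list (20%), that of Chordc1 included, against 0.662% of all.

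The proteasome and lysosome lists held few calls, at 2.33% and 5% of their genes, where 5.16% of all genes were called. Of 43 proteasome genes the immunoproteasome subunit Psmb10 fell by 0.82 (adjusted p = 0.0342), with a list median of -0.20. Of 40 genes of autophagy and the lysosome, Hexa, a lysosomal hexosaminidase, fell by 0.93 and Npc2, a lysosomal carrier of cholesterol, by 0.76 (adjusted p = 0.0128 and 0.0225). Npc2 read 800.4, 752 and 901 in Z-on and 1311, 1567 and 1315 in M-on livers, without overlap, and its littermate mean was 501 ± 39.3 (SD, n = 3). The mouse relatives of the transgene showed no call: Serpina1b read 7171, 6821.5 and 7234 in Z-on and 9217, 7538 and 7789.6 in M-on livers (-0.20, adjusted p = 0.465) and Serpina1c differed by -0.08 (adjusted p = 0.822). Of 18 serpins limma called 0, with 2 at an unadjusted p under 0.05.

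**Figure D5:**
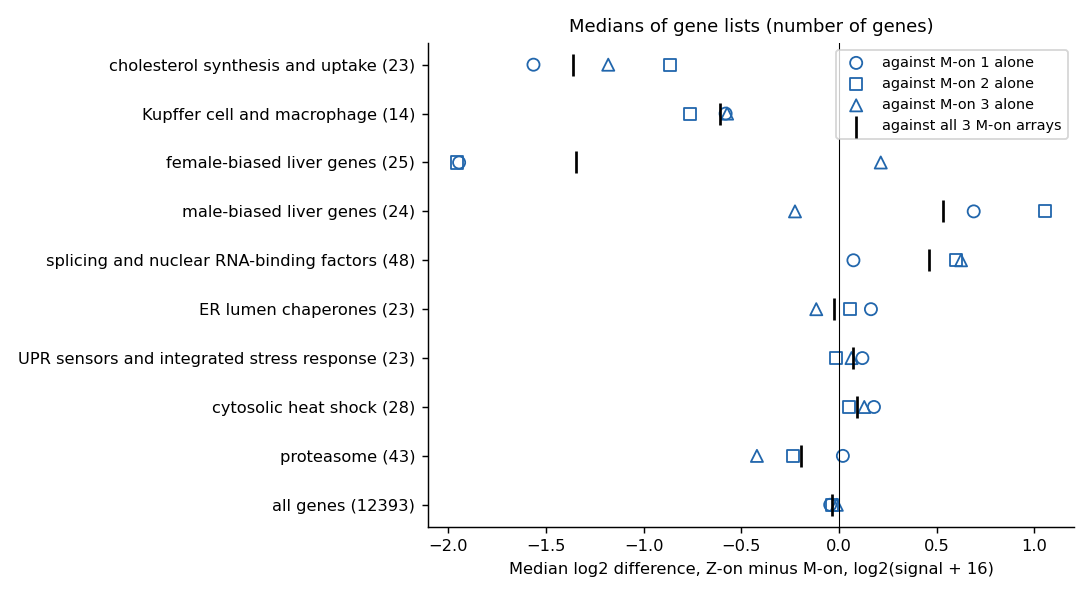
Median log2 difference, Z-on minus M-on, of 9 gene lists and of all genes, against all 3 M-on arrays (bar) and against M-on 1 (circle), M-on 2 (square) and M-on 3 (triangle) alone. The cholesterol list lies at -1.56 to -0.87 against the single arrays, while the female-biased list lies at -1.94 and -1.95 against M-on 1 and 2 and at 0.21 against M-on 3.

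Lists of secreted and metabolic programmes of the hepatocyte differed in their share of called genes, where 5.16% of all genes were called. This share was 5.71% for acute phase genes, 13.3% for complement and coagulation genes and 19% for apolipoprotein genes. For bile acid genes it was 11.1% and for xenobiotic genes 10%. Of 35 acute phase genes, Apcs and Itih1 (-0.55, adjusted p = 0.0317), an inhibitor of the inter-alpha family, fell. Of 30 complement and coagulation genes, F10, Mbl2 and F7 fell by 0.54, 0.52 and 0.49, and Klkb1, prekallikrein, rose by 0.73. Among 21 apolipoprotein genes, Apob and the cholesterol exporter Abca1 rose by 1.56 and 1.14, and Apom and Lcat fell by 0.89 and 0.53. Apob, which forms the core of very low density lipoprotein, read 2343, 1808 and 2850.1 in Z-on livers, against 1622, 572 and 482 on M-on 1, 2 and 3, with M-on 1 between the others and Z-on. Against littermates Apob was lower in both on groups, at -1.44 in Z-on and -3.00 in M-on (adjusted p = 0.0190 and 2.21e-04 by limma). Abca1 differed from littermates by 0.15 in Z-on and -0.99 in M-on (adjusted p = 0.791 and 0.0232). Of 27 bile acid genes, 3 rose: Slco1a1, Slco1b2 (1.71), which takes up bile acids, and Abcc2 (1.04), which exports conjugates into bile. Of 40 xenobiotic genes, Abcc2 and Ugt2b1 rose, and Gstm2 (-0.88) and Cyp3a16 fell. Of the genes named here, Slco1a1, Apcs and Cyp3a16 were also called against M-on 1 alone, and the others were not.

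Energy metabolism and regulatory lists held few calls. Of 32 genes of fatty acid and triglyceride synthesis limma called 0, with 7 at an unadjusted p under 0.05 and a median of -0.09. Of 32 genes of fatty acid oxidation, Acaa2, a mitochondrial thiolase, fell by 0.71 (adjusted p = 0.0348). Of 23 glucose genes, Pfkfb3, a regulator of glycolysis, rose by 1.55 (adjusted p = 0.0273). Of 29 NF-kB genes, Cebpd, an inflammatory transcription factor, and Nfkbia, the inhibitor IκBα, rose by 0.97 and 0.53 (adjusted p = 0.0239 and 0.0282). These were 6.90% of the list, against 3.68% of all genes called higher. With the transgenes off, Nfkbia differed by 0.66 between the lines without a call (adjusted p = 0.0580 by limma). Its interaction was -0.13 (adjusted p = 0.787). Of 17 RGS genes Rgs16 was called, and of 19 clock genes Hlf and Rora rose by 0.83 and 1.33. Of 30 immediate early and handling genes, the glucocorticoid-responsive Klf9 and Tsc22d3 and the phosphatase Dusp6 rose by 2.05, 1.02 and 1.00 (10%, against 3.68% of all genes called higher). Klf9 read 1159, 1086 and 1094.5 in Z-on livers, against 761, 130 and 163 on M-on 1, 2 and 3, and its difference from M-on 1 alone was 0.54 (adjusted p = 0.478). Of 29 hepatocyte transcription factors 1 was called (3.45%), namely Nr3c1, the glucocorticoid receptor, which rose by 1.38. It read 286, 274 and 326 in Z-on livers, against 252, 67.9 and 60.1 on M-on 1, 2 and 3, and its difference from M-on 1 alone was 0.21 (adjusted p = 0.806). Without M-on 2 both calls were lost (adjusted p = 0.111 for Klf9 and 0.165 for Nr3c1), and of the 6 arrays M-on 1 was the one that could be left out with the calls kept, at 2.80 and 1.96.

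Structural and housekeeping lists held at most 2 calls each, where 5.16% of all genes were called. Of 44 matrix genes, Sparc, a collagen-binding protein, fell by 1.09 (adjusted p = 0.00889) and Ccn2, connective tissue growth factor, rose by 1.03 (adjusted p = 0.0493). Of 34 cell cycle genes, Rrm2, a subunit of ribonucleotide reductase, rose by 0.81. Of 39 ribosomal protein genes Fau fell by 0.51, of 67 respiratory chain genes Cycs, cytochrome c, rose by 0.54, and of 32 interferon genes Ifi35 fell by 0.58. Of 35 NRF2 and antioxidant genes limma called 0, with 10 at an unadjusted p under 0.05.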

How the data were processed

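Liver RNA of 15 mice, labelled as biological replicates, was hybridised to Affymetrix mouse arrays, and the 5 groups of 3 were taken from the titles. The deposited files hold 1 linear intensity per probe set, between 0 and 22995.4. RMA, with no version, is the tool that the submitters' processing notes name; values of 0 and a 2% trimmed mean of 150.06 to 150.08 on every array are unlike RMA output, and the sources used here do not give the scaling. The number of arrays limits the precision.

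Here 16 was added and log2 taken. Each of 12393 genes was read by its brightest probe set among those with 1 gene (20380 of 22690), and symbols were checked against RefSeq (20351 matched). limma 3.58.1 in R 4.3.3 fitted 1 mean per group to all 15 arrays (10 residual and 3.88 prior degrees of freedom), with two-sided tests and Benjamini-Hochberg adjustment over all genes. Contrasts were Z-on minus M-on, Z-off minus M-off, their difference, and each on group minus littermates. The Z-on arrays were also tested against each M-on array alone, with the spread pooled over groups, so that the lone array is assumed to vary like the others.

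Gene lists (34 of pathways, 11 of cell markers, 1125 measured entries) and the genes compared were chosen with earlier results of these data known. Named were the 12 largest rises and falls without overlap of the arrays, up to 10 rises and falls called against every M-on array, up to 4 called members of a list (or 2 with the smallest p), and Rgs16, Hspa5, Dnajb9, Xbp1, Ddit3, Serpina1 genes, Xist and Eif2s3y. All enzymes of cholesterol synthesis are given. Some other genes are marked as chosen after their values were seen. The alternatives were quantile normalization, the 6 arrays alone, constants of 1 and 64, removal of dim genes (under the 40th percentile), all probe sets, limma's trend option with robust variances, weights per array, a replicate block and each array left out. On simulated data of 12393 genes, Z-on minus M-on called 0.0328% of genes left unchanged, and it found 19.4%, 65.7% and 95.5% of those shifted by 0.585, 1 and 2 log2 units. The simulation gave each gene the same spread on every array, whereas the real M-on arrays differed among themselves. These shares therefore do not give the rates of false or missed calls in the real data. Plots used matplotlib 3.10.9 (Python 3.11.15).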

Additional observations from a re-analysis of the deposited data

Results flagged for a closer look

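For 21 of the genes named, the difference between Z and M with the transgenes on departed from that with them off, by the interaction term of the limma fit at an adjusted p under 0.05, as in 0.613% of all genes. Signs are (Z-on minus M-on) less (Z-off minus M-off), on the log2(signal + 16) scale.

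In cholesterol synthesis the values were -3.02 for Mvk, -2.77 for Sqle, -2.47 for Cyp51, -2.27 for Fdps and -1.77 for Fdft1, and outside that pathway the value was -2.48 for Rdh11. With the transgenes off the Z-off minus M-off differences of these 6 genes were -0.14 for Mvk, -0.51 for Sqle, -0.01 for Cyp51, -0.61 for Fdps, -0.33 for Fdft1 and 0.40 for Rdh11 (adjusted p from 0.563 to 0.999). Of the female-biased genes, Cyp2c39 gave -6.20, Cyp2c38 -3.53 and Fmo4 -1.77. Cyp2c39 ran in opposite directions, with 181 ± 129 in Z-on and 1404 ± 1048 in M-on, and 266 ± 280.4 in Z-off and 5.13 ± 5.91 in M-off (SD, n = 3 each).

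Positive values were 2.72 for Nox4, 2.61 for Eif2s3y, 2.52 for Pfkfb3, 2.13 for Chordc1, 2.04 for Dnajb4, 1.86 for Luc7l3, 1.68 for Tsc22d3, 1.29 for Serp1 and 1.26 for Dnaja1. For the heat shock genes Chordc1, Dnajb4 and Dnaja1 the Z-off arrays were below the M-off arrays, as for Chordc1 at 222 ± 50.8 in Z-off and 453 ± 29.3 in M-off (SD, n = 3 each). The remaining values were -1.57 for Acaa2, -1.30 for Hexa and -1.27 for Trappc12. On and off arrays also differed in their control probe sets: poly-A medians were 2 to 2.3 in Z-on and 3.7 to 5.2 in M-on, and 45.9 to 48.3 in Z-off and 42.6 to 57.9 in M-off. The part of this in the interaction was not tested.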

How the results depend on the processing

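All values count genes or list members called between Z-on and M-on; no called gene among those named changed direction under the alternatives run, and the causes of the changes were not tested except where fewer arrays were used. Against 456 genes higher and 184 lower, quantile normalization called 285 lower; the 6 arrays alone gave 6 and 12; a constant of 1 gave 78 and 49; a constant of 64 gave 315 lower; all probe sets gave 731 higher; array weights gave 1159 and 690; M-on 1 alone gave 26 and 43, M-on 2 alone 875 and 279, and M-on 3 alone 959 and 310. Leaving out 1 array gave 36 to 1127 higher and 39 to 537 lower.

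The 14 falls in cholesterol synthesis became 7 with the 6 arrays alone and 6 against M-on 1 alone, and stayed within 1.5 times that count under the other alternatives. With the 6 arrays alone limma called 0 of the female-biased falls, male-biased rises, splicing, ER chaperone, ER-associated degradation and heat shock rises, and 1 macrophage fall. With a constant of 1 the counts were 1 for female-biased falls, splicing and ER-associated degradation, and 0 for male-biased and heat shock rises. Array weights gave 14 female-biased falls, 7 male-biased rises, 9 macrophage falls, and 26, 6 and 7 rises in splicing, ER chaperones and ER-associated degradation. Without dim genes there were 7 macrophage falls and 14 splicing rises.

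Against M-on 1 alone there were 4 male-biased rises, 1 splicing rise and 0 macrophage, chaperone, degradation or heat shock calls. Against M-on 2 alone there were 13 female-biased falls, 12 male-biased rises, 21 splicing rises and 1 heat shock rise. Against M-on 3 alone the medians of the sex-biased lists changed sign, to 0.21 from -1.35 (female-biased) and to -0.22 from 0.53 (male-biased), and there were 0 female-biased falls, 1 male-biased rise and 19 splicing rises. Leaving out 1 array gave 1 to 15 female-biased falls, 0 to 9 male-biased rises, 0 to 6 macrophage falls, 1 to 25 splicing rises, 0 to 5 chaperone rises, 1 to 6 degradation rises and 0 to 7 heat shock rises.

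Same-numbered Z-on and M-on arrays did not deviate together (correlations of -0.17, -0.05 and -0.08), so the numbers do not pair the mice. With the replicate number as a block, 336 genes were higher and 131 lower, with 3 female-biased falls, 1 male-biased rise and 0 heat shock rises. Signals near the constant of 16 limit the sizes given for dim genes.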

Other observations

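Of the fit of the 6 arrays alone, 6 genes rose, of which Lats2, Nup54 and Zfp975 were not yet described and were chosen after their values were seen. Lats2, a kinase of the Hippo pathway, differed by 1.04 (adjusted p = 0.0433 by limma in that fit), at 71.6, 65.9 and 63.1 in Z-on and 24.4, 24.8 and 23.9 in M-on livers. Nup54, a nuclear pore protein, differed by 1.35 (adjusted p = 0.0407), at 115, 133 and 104 in Z-on and 40.2, 33.5 and 34.3 in M-on livers. Zfp975, a zinc finger gene, differed by 1.08 (adjusted p = 0.0433), at 19.4, 22.9 and 20.1 in Z-on and 2, 2.1 and 0.3 in M-on livers. For these genes the 3 M-on arrays lay below the Z-on arrays without the step between M-on 1 and the other 2 that marked most rises.

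Cfp, which encodes properdin of the alternative complement pathway, was in none of the lists described and was also chosen after its values were seen. It read 21.7, 33 and 18.5 in Z-on and 95.6, 139 and 92.5 in M-on livers (-1.63, SE 0.26, adjusted p = 0.00643) and kept its call with any single array left out.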
